A study of Mus musculus with 18 samples.

Results

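The transcripts of 10 glutathione transferase genes were measured in the livers of 18 male C57BL/6J mice. They were the alpha class genes Gsta2, Gsta3 and Gsta4, the mu class genes Gstm1, Gstm2, Gstm3, Gstm4 and Gstm6, the pi class gene Gstp1 and the theta class gene Gstt2. The members were every probe set on the Affymetrix Mouse Genome 430 2.0 array that carries one of these 10 symbols, which gave 16 of 45037 probe sets, for 10 of 18193 genes with a probe set of their own. Of the 16, 15 carried a single symbol and 1 carried 3 symbols (Gm3776, Gsta2 and Gsta1). Gstm1 had 4 probe sets, Gsta2, Gsta3 and Gstm3 had 2 each, and the other 6 genes had 1. The mice had been assigned at 5 weeks of age to 6 groups and were sampled at 62 weeks, with 3 arrays a group and 1 mouse an array. HF+CR mice received a diet with 60% fat in an amount cut by 30%, HF+Ex mice had that diet and a running wheel used at will, and HF mice ate it freely. LF+CR, LF+Ex and LF mice had the same 3 regimens on a diet with 10% fat. Each restricted ration was set from what the freely fed mice of the same diet ate, so the restricted groups differed in dietary fat and in the intake from which their rations were set, and all mice lived singly. Neither the feeding state nor the hour at sampling is stated in the labels.

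Glutathione transferases join the tripeptide glutathione to electrophilic compounds, among them drug metabolites, carcinogen epoxides and the aldehydes left by lipid peroxidation, and the conjugates are then exported from the cell. In rodent liver, many alpha and mu class genes are induced through the transcription factor NRF2, which binds antioxidant response elements, and through the xenobiotic receptors CAR and PXR. The pi class enzyme is known to be abundant in the liver of male mice. Because the members of a class are close in sequence, a probe set of one gene can bind transcripts of another. In Affymetrix naming, an identifier ending in _x_at or _s_at marks probes that may be shared with other transcripts, and the probe sequences were not used here. Among the members, the brightest Gstm1 probe set and another of Gstm1 end in _x_at. The brighter Gstm3 probe set and the Gsta2 probe set with several symbols end in _s_at.

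To show what lies at the start of the genes, the promoter windows of RefSeq (GRCm38.p6, 250 bases before to 50 after the annotated start) were searched on both strands for 4 motifs. The motifs were 2 core forms of the antioxidant response element, TGACNNNGC and TGAGNNNGC, the AP-1 site TGAGTCA and the CCAAT box CCAAT. Of the 10 genes, 8 had at least 1 window, and 12 windows were searched, some of which overlap. The 4 printed below belong to the alpha class gene that varied most between groups (Gsta2), to the alpha class gene that varied least (Gsta3), to the mu class gene that varied most (Gstm3) and to the pi class gene (Gstp1), and the capitals mark motif matches.
Gsta2, chr9:78347096-78347395, minus strand: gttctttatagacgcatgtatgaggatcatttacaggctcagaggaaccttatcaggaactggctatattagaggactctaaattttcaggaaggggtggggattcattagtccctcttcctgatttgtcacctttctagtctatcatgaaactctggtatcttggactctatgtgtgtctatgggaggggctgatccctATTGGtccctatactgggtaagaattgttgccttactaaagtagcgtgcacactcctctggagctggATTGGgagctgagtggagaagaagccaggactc
Gsta3, chr1:21240335-21240634, plus strand: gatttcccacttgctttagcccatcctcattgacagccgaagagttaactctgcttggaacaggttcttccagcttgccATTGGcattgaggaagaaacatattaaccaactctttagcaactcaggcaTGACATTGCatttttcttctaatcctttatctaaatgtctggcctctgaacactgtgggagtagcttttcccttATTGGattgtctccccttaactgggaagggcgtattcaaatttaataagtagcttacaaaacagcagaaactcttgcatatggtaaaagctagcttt
Gstm3, chr3:107969125-107969424, minus strand: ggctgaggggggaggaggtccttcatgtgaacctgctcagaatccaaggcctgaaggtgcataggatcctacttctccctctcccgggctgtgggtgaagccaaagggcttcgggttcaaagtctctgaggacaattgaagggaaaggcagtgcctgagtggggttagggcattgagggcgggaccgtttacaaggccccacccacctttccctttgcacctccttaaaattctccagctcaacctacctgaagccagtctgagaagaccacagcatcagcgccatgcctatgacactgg
Gstp1, chr19:4037863-4038162, minus strand: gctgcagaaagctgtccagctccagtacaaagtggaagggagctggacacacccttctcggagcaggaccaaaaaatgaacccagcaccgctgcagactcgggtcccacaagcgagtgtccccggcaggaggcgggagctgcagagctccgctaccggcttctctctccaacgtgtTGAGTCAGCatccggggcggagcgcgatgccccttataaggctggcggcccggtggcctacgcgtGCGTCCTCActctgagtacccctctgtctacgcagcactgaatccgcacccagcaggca
The Gsta3 window held the first core form 121 bases before the start, and the Gstp1 window held the second form 74 bases before the start, where it overlaps an AP-1 site, and again 9 bases before it. Of all 32851 mouse windows, 12.4% held the first core form, 17.6% the second, 5.2% the AP-1 site and 37.4% a CCAAT box. A CCAAT box was present in 10 of the 12 windows, with Gstm3 and Gstp1 as the exceptions. The Gsta2 window held CCAAT boxes and neither core form, and the Gstm3 window held none of the 4 motifs. A match is a run of letters, not a measured binding site, and a window without a match says nothing about a factor that may bind elsewhere. The mu class members lie next to one another on chromosome 3, in the order Gstm5, Gstm7, Gstm6, Gstm3, Gstm2, Gstm1, Gstm4.

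The deposited values were linear intensities between 31.08 and 21653.94. The means of the 18 arrays lay between 304.9 and 307.8. Values were analysed as log2(intensity + 16) with limma, with 1 mean per group over all 18 arrays and Benjamini-Hochberg adjustment over the 29336 probe sets that passed a filter on dim signals. All 16 member probe sets passed that filter, and "called" below means an adjusted p under 0.05. Fold changes are on this offset scale. The arrays LF+CR 2, HF 1 and HF+Ex 3 stood apart from their groups on the leading principal component, 25% of the total variance (scores of 31.45, 28.59 and 25.68, with the other 15 arrays between -19.29 and 10.9). The arrays HF+Ex 1, LF+CR 1, LF+Ex 3 and LF 1 carried transcripts of pancreatic acinar cells, with summed intensities of 8 markers from 3085.2 to 7923.7 against 815.7 to 2418.6 on the other 14. Of these 8 markers, Cela1 alone was called in HF+CR against HF, at a log2 fold change of 1.81. On the HF+CR arrays Cela1 read 1232.96 to 1827.19, the largest part of the sum there. Clps, Cela2a, Cela3b, Cpb1 and Prss2 read 41.52 to 69.08 on those arrays, and Cpa1 and Ctrb1 read 133.28 to 370.86. The counts of members and list genes called under restriction are given with and without the arrays named. The hepatocyte markers Alb, Apoa1, Ttr and Cps1 were bright throughout, with a sum between 53628.2 and 62653.5. The sum was highest on the LF+CR arrays, at 61132.2 to 62653.5, and no other array was above 58282.8. Cps1 was called higher in LF+CR against LF and in HF+CR against HF, at a log2 fold change of 0.34 in each. In whole liver, fewer cells of a type and less RNA per cell cannot be told apart.

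Restriction went with different changes in the members on the 2 diets. In LF+CR livers, 6 of the 16 member probe sets, of Gsta2, Gsta4, Gstm1, Gstm2 and Gstm3, were called higher than in LF livers and none lower, where 2.04% of all probe sets were called higher and 2.79% lower. In HF+CR livers, both Gsta2 probe sets were called lower than in HF livers and Gstm6 was called higher, where 2.19% of all probe sets were lower and 2.89% higher. The median log2 fold change over the 16 was 0.56 in LF+CR against LF and -0.36 in HF+CR against HF, while the medians over all probe sets were -0.01 and 0.04. The difference between the 2 restriction effects, HF+CR minus HF less LF+CR minus LF, was tested as an interaction. It was negative and called for 13 of the 16 probe sets, where 2.16% of all probe sets were called negative and 2.91% positive, and its median over the 16 was -0.95 against 0.05 over all probe sets. The exceptions were Gstm6, Gstp1 and the second Gsta3 probe set. The 13 belong to 8 of the 10 genes. Probe sets of the same gene are not separate results, as those of Gstm1 had Pearson correlations of 0.96 to 0.998 with each other. HF+CR livers were called lower than LF+CR livers in 11 member probe sets and higher in none, against 3.4% and 4.83% of all probe sets. With 1 array left out, the number of members called was 1 (without LF 3) to 12 (without LF+CR 3) in LF+CR against LF and 1 to 2 in HF+CR against HF. It was 4 (without LF+CR 2) to 12 (without LF+CR 3) in HF+CR against LF+CR, and 6 (without HF 1) to 13 in the interaction. These comparisons share arrays (LF, HF, HF+CR and LF+CR each enter more than 1), so their counts are not independent of each other. The 10 genes were chosen with earlier results of these data known. The shares over all probe sets are therefore given as a description, not as a test of the members.

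**Figure D1:**
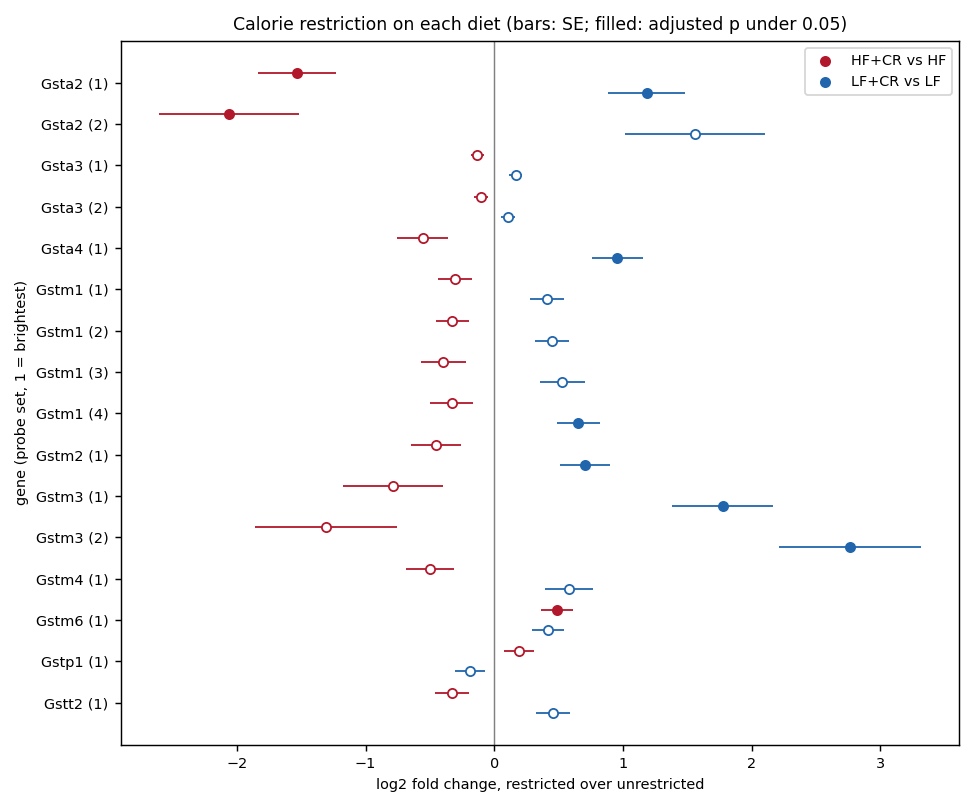
Log2 fold change of restriction for each of the 16 member probe sets (horizontal axis, log2(intensity + 16) scale), HF+CR against HF in red and LF+CR against LF in blue, with bars of 1 SE and filled points for an adjusted p under 0.05. The second probe set under Gsta2 carries 3 symbols. Red points lie left of 0 for 14 probe sets and blue points lie right of 0 for 15, and Gstm6 is right of 0 in both.

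Dietary fat alone and running gave few calls. In HF livers, 2 member probe sets, of Gsta2 and Gsta3, were called higher than in LF livers and none lower, against 0.477% and 0.256% of all probe sets, and with 1 HF or LF array left out 0 or 1 was called. Neither running comparison called a member. LF+Ex against LF had 0 called among 16 members and 2 at an unadjusted p under 0.05, with 0.00682% of all probe sets called by limma. HF+Ex against HF had 0 called and 1 at an unadjusted p under 0.05, with 0% of all probe sets called. All 16 fold changes of HF+Ex against HF were below 0, with a median of -0.26, which is a description of 16 values that share the same 6 arrays and, in part, the same transcripts.

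**Figure D2:**
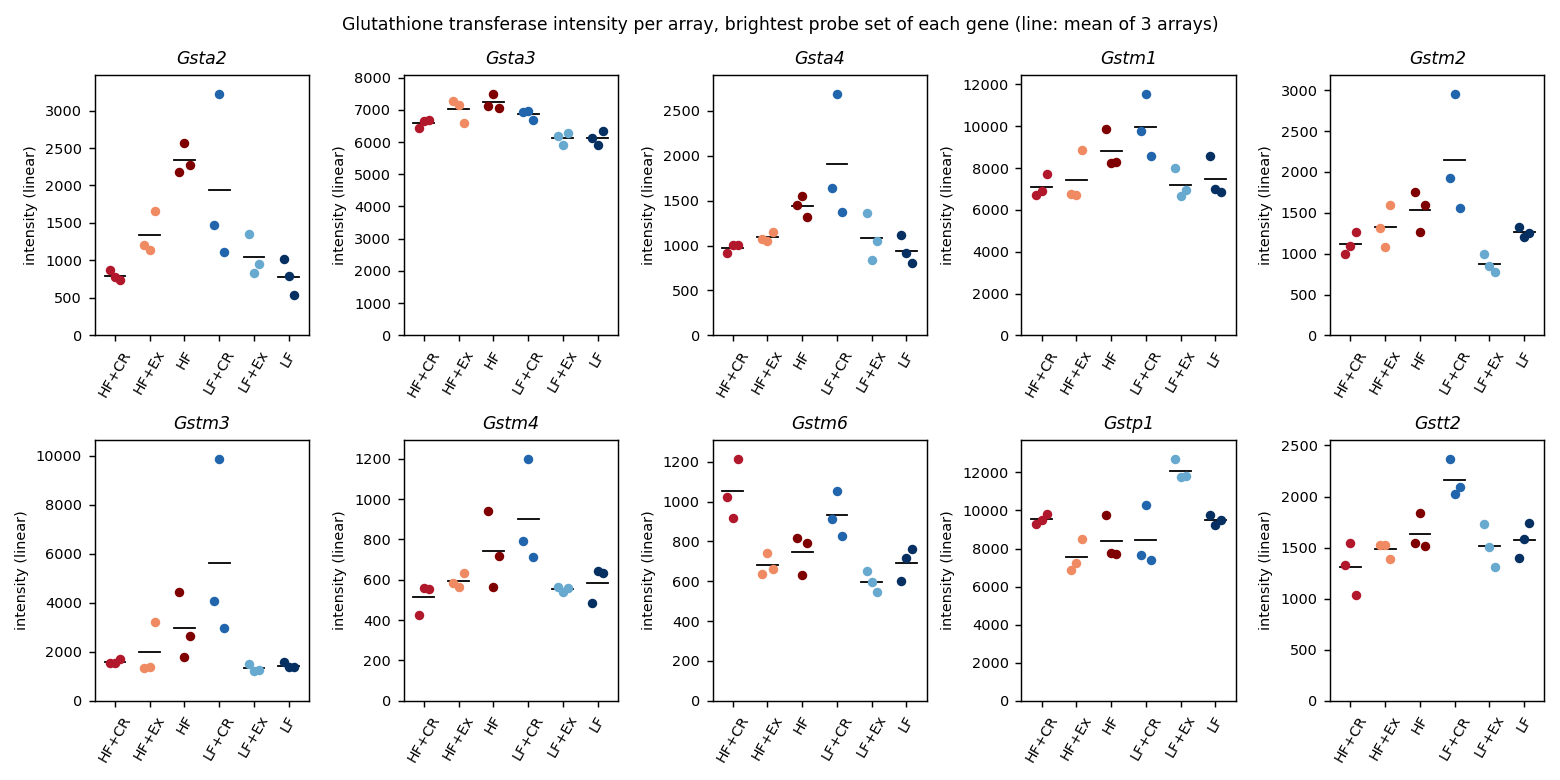
Linear intensity (vertical axes, from 0) of the brightest probe set of each of the 10 genes on each of the 18 arrays, with a line at the mean of the 3 arrays of a group. Gsta2, Gsta4, Gstm1, Gstm2, Gstm3, Gstm4 and Gstt2 have their highest array in LF+CR, and Gstp1 has its 3 highest arrays in LF+Ex.

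Of the alpha class, Gsta2, which belongs to the antioxidant-inducible genes of mouse liver, moved most. Its single-symbol probe set read 876, 777 and 740.0 in HF+CR livers, 1199.9, 1145 and 1666 in HF+Ex livers, and 2183, 2565 and 2269.9 in HF livers. It read 1477, 3223 and 1119 in LF+CR livers, 1352, 835 and 948 in LF+Ex livers, and 1013, 796 and 545 in LF livers. The 3 HF values lay above all others except LF+CR 2, and the HF+CR values did not overlap those of HF or of LF+CR but lay within the range of LF. Gsta2 was lower in HF+CR than in HF livers, with means of 798 ± 70.2 and 2339 ± 200.2 (SD, n = 3 each) and a log2 fold change of -1.53 ± 0.30 (SE, limma adjusted p = 0.0102). It was higher in LF+CR than in LF livers, at 1939.7 ± 1126 against 785 ± 234 (log2 fold change 1.18 ± 0.30, limma adjusted p = 0.0326). It was also higher in HF than in LF livers by a log2 fold change of 1.60 ± 0.30 (limma adjusted p = 0.0258). The interaction was -2.72 ± 0.43 (limma adjusted p = 0.00187).

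The HF+CR call and the interaction of Gsta2 held with each array left out in turn. The LF+CR call rested on single arrays: without LF+CR 2 the log2 fold change was 0.74 (limma adjusted p = 0.116), and without LF 2, LF 3 or LF+CR 1 the adjusted p was 0.0743, 0.143 and 0.0552. The HF call was lost without LF 2, LF 3, HF 1, HF 2 or HF 3, with log2 fold changes of 1.36 to 1.64. The probe set annotated to Gm3776, Gsta1 and Gsta2 read 543, 462 and 522 in HF+CR livers, against 3296, 1781 and 1734 in HF livers. It read 971, 4688 and 644 in LF+CR livers, against 644, 499 and 336 in LF livers. HF+CR and HF did not overlap, and the LF+CR mean was carried by LF+CR 2. Its log2 fold change was -2.06 ± 0.54 in HF+CR against HF (limma adjusted p = 0.0409) and 1.56 ± 0.54 in LF+CR against LF (limma adjusted p = 0.128). With any 1 of the 6 HF+CR and HF arrays left out, the adjusted p of the first difference was 0.0634 to 0.185. Without LF+CR 3 the second was called, at a log2 fold change of 2.13 (limma adjusted p = 0.0306). The interaction was -3.62 ± 0.77 (limma adjusted p = 0.0135) and was called in all 23 alternative analyses. Over the 18 arrays, the 2 probe sets had a Pearson correlation of 0.951.

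Gsta4, whose enzyme is known for conjugating 4-hydroxynonenal, an aldehyde from oxidised lipids, had its highest values in LF+CR and HF livers. It read 915, 1002 and 1002 in HF+CR livers, 1068, 1049 and 1156 in HF+Ex livers, and 1450.3, 1548 and 1321 in HF livers. It read 1645, 2689 and 1377 in LF+CR livers, 1363, 834 and 1047 in LF+Ex livers, and 1115, 912 and 803 in LF livers. LF+CR values lay above all LF and HF+CR values and overlapped those of HF. Gsta4 was higher in LF+CR than in LF livers, at 1904 ± 693 against 943 ± 158 (log2 fold change 0.95 ± 0.20, limma adjusted p = 0.0103), and without LF 3 the adjusted p was 0.0545. In HF+CR against HF the values did not overlap, at 973 ± 50.01 against 1439.9 ± 114, and the log2 fold change of -0.56 ± 0.20 was not called (limma adjusted p = 0.11). The interaction was -1.51 ± 0.28 (limma adjusted p = 0.0064) and was called in all 24 alternative analyses.

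Gsta3, which in mice encodes the enzyme that detoxifies the epoxide of aflatoxin, was bright and nearly level. Its brighter probe set read 6426, 6664 and 6698 in HF+CR livers, 7126, 7495 and 7070.2 in HF livers, 6922, 6961 and 6679.9 in LF+CR livers, and 6116, 5905 and 6328 in LF livers. The highest of the 18 arrays was 1.27 times the lowest, and HF values did not overlap LF values. The log2 fold change of HF against LF was 0.24 ± 0.05 (limma adjusted p = 0.046), and leaving out any 1 of the 6 arrays put the adjusted p between 0.0854 and 0.165. The interaction was -0.30 ± 0.07 (limma adjusted p = 0.0312). It was not called without LF 1, LF 2, LF+CR 1, LF+CR 2, HF 1, HF 2, HF+CR 1 or HF+CR 2, where the value stayed between -0.31 and -0.27. The second Gsta3 probe set had 0.22 ± 0.05 in HF against LF (limma adjusted p = 0.0756) and an interaction of -0.21 ± 0.08 (limma adjusted p = 0.119).

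Of the mu class, Gstm3, an NRF2-inducible gene in mouse liver, spanned the widest range. Its brighter probe set read 1557, 1518 and 1698 in HF+CR livers, 1350.4, 1374 and 3228 in HF+Ex livers, and 4436, 1788 and 2634 in HF livers. It read 4072, 9869.8 and 2979 in LF+CR livers, 1501, 1196 and 1252 in LF+Ex livers, and 1579.5, 1363 and 1358 in LF livers. All LF+CR values lay above all values of LF, LF+Ex and HF+CR, and the highest value of LF+CR, HF and HF+Ex was on LF+CR 2, HF 1 and HF+Ex 3. Gstm3 was higher in LF+CR than in LF livers, at 5641 ± 3703 against 1434 ± 126 (log2 fold change 1.77 ± 0.39, limma adjusted p = 0.015). Without LF+CR 2 this was 1.27 (limma adjusted p = 0.0607), and without LF 3 it was 1.74 (limma adjusted p = 0.0538). HF+CR and HF livers did not overlap, at 1591 ± 94.7 against 2953 ± 1353, and the log2 fold change of -0.79 ± 0.39 was not called (limma adjusted p = 0.229). The dimmer probe set read 250.4, 249 and 296 in HF+CR livers, against 1414, 368 and 592 in HF livers, and 1236, 4615 and 780.0 in LF+CR livers, against 251, 224 and 213 in LF livers. Neither pair of groups overlapped. Its LF+CR log2 fold change was 2.77 ± 0.55 (limma adjusted p = 0.00786), a 6.80-fold difference. It was called with each array left out in turn, and without LF+CR 2 it was smaller, at 2.03 (limma adjusted p = 0.0276). The interactions of the 2 probe sets were -2.56 ± 0.55 and -4.08 ± 0.78 (limma adjusted p = 0.0147 and 0.00775).

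**Figure D3:**
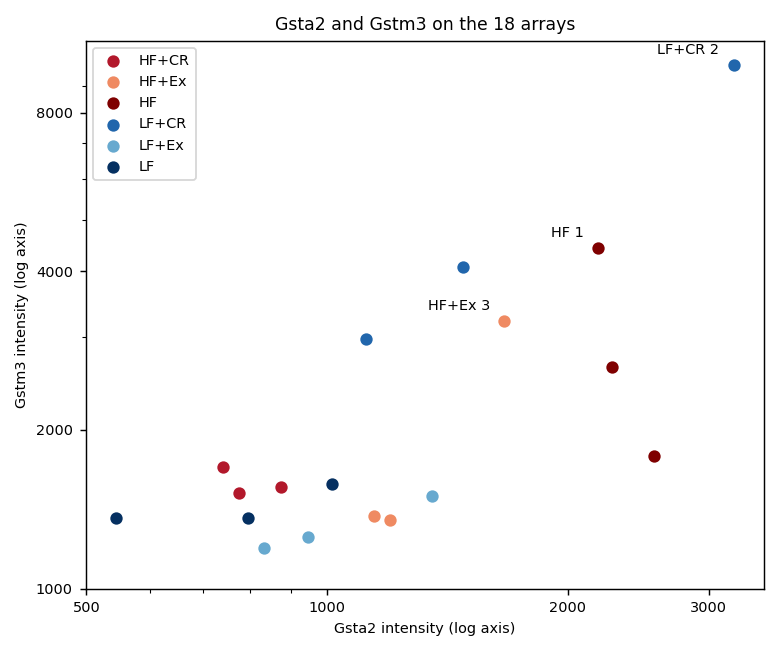
Intensity of Gstm3 (vertical axis, log scale) against that of Gsta2 (horizontal axis, log scale), brightest probe set of each, on the 18 arrays, coloured by group. The 3 arrays that stood apart on the first principal component are named, HF livers are among the highest for Gsta2, and LF+CR livers are among the highest for Gstm3.

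The rest of the mu class moved less. Gstm1, a major mu class enzyme of mouse liver, had in its brightest probe set 6717, 6887 and 7699 in HF+CR livers, against 9851, 8245 and 8294 in HF livers, and 9768, 11546 and 8566 in LF+CR livers, against 8573, 6996 and 6853 in LF livers. HF+CR values lay below all HF values, and LF 1 overlapped LF+CR. Its log2 fold change was 0.41 ± 0.13 in LF+CR against LF (limma adjusted p = 0.0894) and -0.31 ± 0.13 in HF+CR against HF (limma adjusted p = 0.166), neither called. Only the dimmest of the 4 Gstm1 probe sets was called in LF+CR against LF. That probe set read 546, 750.0 and 435 in LF+CR livers, against 408, 349 and 308 in LF livers, with a log2 fold change of 0.65 ± 0.17 (limma adjusted p = 0.0336). The adjusted p was 0.0789 to 0.149 without LF 2, LF 3, LF+CR 1 or LF+CR 2. The interaction was called for all 4 Gstm1 probe sets, at -0.72 ± 0.18, -0.77 ± 0.19, -0.92 ± 0.24 and -0.98 ± 0.24 from the brightest to the dimmest (limma adjusted p from 0.0256 to 0.0401). All 4 lost the call without LF 2, LF 3, LF+CR 2, HF 1 or HF+CR 1, with adjusted p between 0.0509 and 0.118, and 2 or 3 of them did so without LF+CR 1, HF 3 or HF+CR 2. In LF+CR against LF, the other 3 Gstm1 probe sets were called without LF+CR 3 (log2 fold changes of 0.51, 0.55 and 0.67), and the second brightest was also called without LF 1 (0.56).

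Gstm2 read 992, 1089 and 1265 in HF+CR livers, 1314, 1085 and 1594 in HF+Ex livers, and 1750.0, 1266 and 1601 in HF livers. It read 1924, 2956 and 1554 in LF+CR livers, 999.95, 852 and 777 in LF+Ex livers, and 1328, 1209.9 and 1250.0 in LF livers. LF+CR lay above LF, and LF+Ex lay below LF, without overlap. Gstm2 was higher in LF+CR than in LF livers by a log2 fold change of 0.71 ± 0.19 (limma adjusted p = 0.0462). Leaving out LF 1, LF 2, LF 3, LF+CR 1 or LF+CR 2 put the adjusted p between 0.0844 and 0.196, and without LF+CR 2 the log2 fold change was 0.45. In LF+Ex against LF it was -0.53 ± 0.19 (limma adjusted p = 1). The interaction of Gstm2 was -1.16 ± 0.27 (limma adjusted p = 0.0229), and without HF 1, HF 3 or HF+CR 1 the adjusted p was 0.0713, 0.0531 and 0.0537.

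Gstm4 read 423, 558 and 555 in HF+CR livers, against 942, 565 and 719 in HF livers, and 791, 1198 and 712 in LF+CR livers, against 483, 641 and 631 in LF livers. Neither pair overlapped, although HF 2 was just above the highest HF+CR array. Its log2 fold changes of -0.50 ± 0.19 and 0.58 ± 0.19 were not called (limma adjusted p = 0.121 and 0.093), and its interaction was -1.08 ± 0.26 (limma adjusted p = 0.0267). Without LF+CR 3, the LF+CR difference of Gstm4 was called at 0.73 (limma adjusted p = 0.0428). The interaction of Gstm4 was not called without LF 1, LF+CR 2, HF 1, HF 3 or HF+CR 1 (limma adjusted p from 0.0529 to 0.0775). Gstm6 alone of the 5 mu class members had a positive log2 fold change in HF+CR against HF. It read 1025, 918 and 1214 in HF+CR livers, 639, 742 and 664 in HF+Ex livers, and 815, 632 and 791 in HF livers. It read 911, 1056 and 827 in LF+CR livers, 650.0, 596 and 546 in LF+Ex livers, and 602, 716 and 762 in LF livers. The restricted groups lay above the freely fed group of the same diet without overlap. Gstm6 was higher in HF+CR than in HF livers by a log2 fold change of 0.49 ± 0.13 (limma adjusted p = 0.0363). With HF 1, HF 2, HF 3, HF+CR 1 or HF+CR 3 left out the adjusted p was 0.0659 to 0.109. In LF+CR against LF it was 0.42 ± 0.13 (limma adjusted p = 0.0709), which without LF+CR 3 was 0.50 (limma adjusted p = 0.0462), and the difference between the 2 effects was 0.07 with a 95% interval of -0.30 to 0.44.

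Gstp1 had another order of groups. It read 9287, 9511 and 9809.9 in HF+CR livers, 6879.8, 7220.0 and 8515 in HF+Ex livers, and 9765, 7770.0 and 7689 in HF livers. It read 7634, 10272 and 7375 in LF+CR livers, 12699, 11773 and 11822 in LF+Ex livers, and 9753, 9241 and 9492 in LF livers. LF+Ex lay above every other array, while HF 1 and LF+CR 2 were well above the other 2 arrays of their groups. The log2 fold change of LF+Ex against LF was 0.35 ± 0.12, with a 95% interval of 0.10 to 0.59, and was not called (limma adjusted p = 1). None of the other Gstp1 comparisons was called. The interaction was 0.38 ± 0.16 (limma adjusted p = 0.182), and without LF+CR 2 it was 0.53 (limma adjusted p = 0.045).

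Gstt2, of the theta class, read 1329, 1549 and 1039.8 in HF+CR livers, against 1541, 1842 and 1515 in HF livers, and 2366, 2029 and 2098 in LF+CR livers, against 1401, 1587 and 1736 in LF livers. LF+CR lay above LF without overlap, and HF+CR overlapped HF. Its interaction was -0.79 ± 0.19 (limma adjusted p = 0.0243), and it was not called without LF 1, LF+CR 1 or HF 2 (limma adjusted p of 0.0545, 0.0567 and 0.0502). HF+CR livers had less Gstt2 than LF+CR livers, at 1306 ± 255 against 2164 ± 178, with a log2 fold change of -0.74 ± 0.13 (limma adjusted p = 0.00315). That was the smallest adjusted p of any member in the comparison, and the call held in all alternative analyses.

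Leaving out LF+CR 2, HF 1 and HF+Ex 3 together turned no direction among the members called with all arrays. The count of members called was then 4 in place of 6 in LF+CR against LF, 4 in place of 3 in HF+CR against HF, 8 in place of 11 in HF+CR against LF+CR, and 3 in place of 2 in HF against LF. The calls over all probe sets, listed in the section on processing, also fell in HF+CR against HF, HF+CR against LF+CR and the interaction. Those of LF+CR against LF and HF against LF are not listed for this setting. The 3 in HF against LF were both Gsta2 probe sets at 1.64 and 1.85, and Gstp1, which was called lower at -0.30, while the Gsta3 call was lost (limma adjusted p = 0.0825). The 8 in HF+CR against LF+CR were 7 called lower, of Gstm1, Gstm2, Gstm3, Gstm4 and Gstt2, and Gstp1, called higher at 0.34. In LF+CR against LF, Gsta4 at 0.68 and both Gstm3 probe sets at 1.28 and 2.03 were still called, Gstp1 was called lower at -0.34, and the calls of Gsta2, Gstm1 and Gstm2 were lost. In HF+CR against HF, both Gsta2 probe sets at -1.58 and -1.76 and Gstm6 at 0.55 were still called, and Gstp1 was called higher at 0.30. The interaction was then called for 6 probe sets in place of 13: both Gsta2 probe sets at -2.33 and -2.47, Gsta4 at -1.23, both Gstm3 probe sets at -1.72 and -2.82, and Gstp1 at 0.64 (limma adjusted p = 0.00102). Without LF+CR 2 alone, 8 members were called in the interaction and 2 in LF+CR against LF. Of these 8, Gstp1 was newly called and positive, at 0.53, and the others were negative. Without HF 1 alone the interaction had 6 members, and 691 of all probe sets were called in place of 1486. On LF+CR 2 the summed intensity of 5 Kupffer cell markers was 7448, against 4246 and 4248.9 on the other LF+CR arrays, and that of 5 pericentral hepatocyte markers was 19264.3, against 21564.8 and 22325.1. The stellate cell sum there was 4453.3, against 3259.9 and 3256.2, and the cholangiocyte sum 689.4, against 460 and 471.2. On HF+Ex 3 the Kupffer cell sum was 5545.4, against 3142.2 and 4252.6 on the other HF+Ex arrays, and the stellate cell sum 5124.7, against 3967.9 and 3937.7. HF 1 did not stand apart in this way. Its Kupffer cell sum was 6447.2, against 6564.7 and 4232.1 on HF 2 and HF 3. Its stellate cell sum was 4062.5, against 4153.4 and 4339. None of these markers was at 0, and their part in the results was not tested. Leaving out the 4 arrays with pancreatic transcripts, which leaves 2 arrays in LF+CR, LF, LF+Ex and HF+Ex, left 0 members called in LF+CR against LF, 1 in HF+CR against HF and 4 in the interaction, with every direction kept among the pairs called with all arrays. The Gsta2 values were 1.51 in LF+CR against LF and -1.53 in HF+CR against HF in that analysis. The calls over all probe sets also fell in it, as listed in the section on processing.

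**Figure D4:**
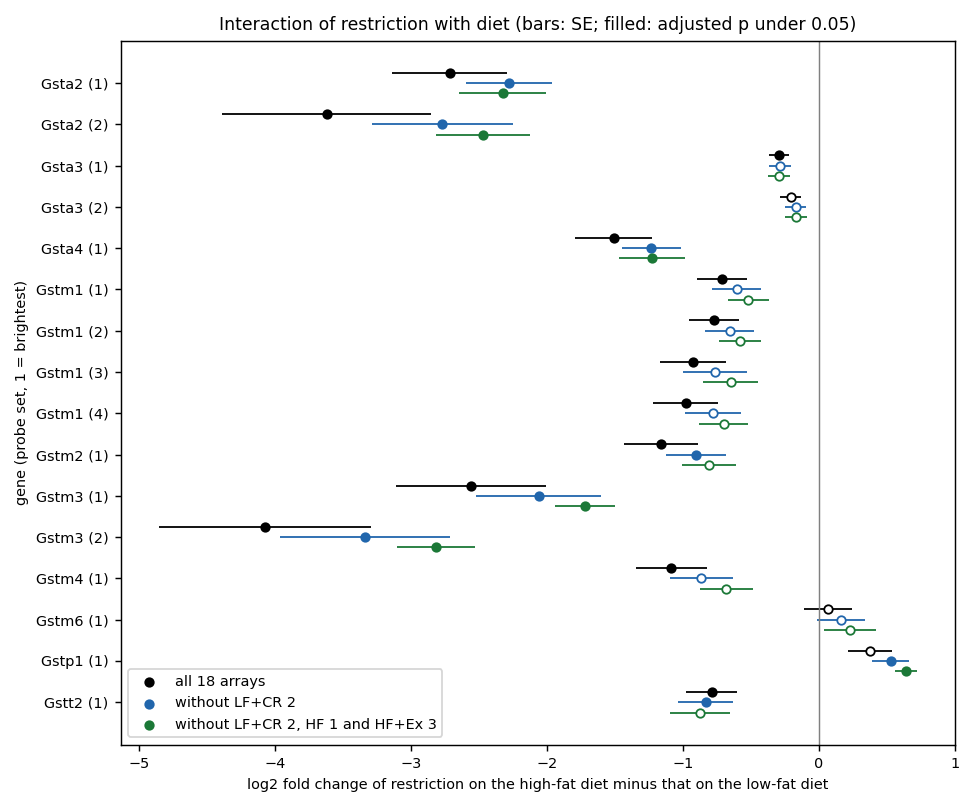
Interaction of restriction with diet for each of the 16 member probe sets (horizontal axis, log2 fold change of HF+CR against HF minus that of LF+CR against LF), with all 18 arrays in black, without LF+CR 2 in blue, and without LF+CR 2, HF 1 and HF+Ex 3 in green. Bars are 1 SE and filled points have an adjusted p under 0.05. The values keep their side of 0 in all 3 analyses, and 13, 8 and 6 points are filled. Gstp1, right of 0, is filled in blue and green and open in black.

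The fat and running comparisons set HF livers against LF livers and each running group against the freely fed mice of its diet. In HF against LF, 15 of the 16 fold changes were above 0, with a median of 0.27, and Gstp1 was below at -0.18. The largest were those of Gsta2 and of the probe set shared by 3 symbols (2.15 ± 0.54, limma adjusted p = 0.0825), followed by the Gstm3 probe sets at 1.50 ± 0.55 and 0.94 ± 0.39 (limma adjusted p = 0.214 and 0.265). HF and LF did not overlap in either Gstm3 probe set. In HF+Ex against HF the largest were -1.02 ± 0.54 for the shared probe set, -0.84 ± 0.55 for the dimmer Gstm3 probe set and -0.82 ± 0.30 for Gsta2 (limma adjusted p = 1 for each). The 95% interval was -2.17 to 0.14 for the shared probe set and -1.45 to -0.18 for Gsta2. The HF+Ex values of Gsta2 all lay below the HF values.

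**Figure D5:**
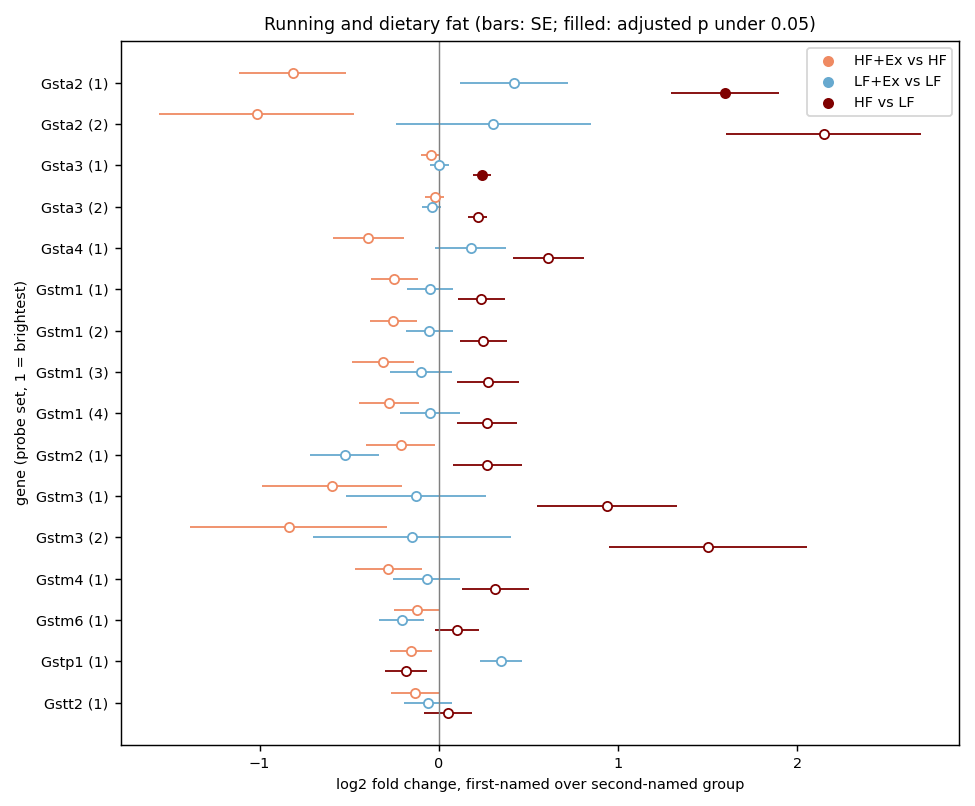
Log2 fold change (horizontal axis, log2(intensity + 16) scale) of each of the 16 member probe sets for HF+Ex against HF, LF+Ex against LF and HF against LF, with bars of 1 SE and filled points for an adjusted p under 0.05. Only Gsta2 and Gsta3 in HF against LF are filled, and all 16 points of HF+Ex against HF lie left of 0.

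The members varied together to different degrees. Over the 18 arrays, which share groups, Gstm1 and Gstm3 had a Pearson correlation of log2 values of 0.929, Gstm2 and Gstm3 of 0.919, and Gsta2 and Gsta4 of 0.865. Over the 15 arrays without LF+CR 2, HF 1 and HF+Ex 3 these were 0.847, 0.831 and 0.832. The brightest probe sets of Gstm1 and Gstm3 end in _x_at and _s_at, so their probes may be shared with other transcripts. The part of shared probes in these correlations was not tested. Gstm6 had between 0.012 (with Gstt2) and 0.463 (with Gstm2) with the genes other than Gstp1, and Gstp1 was below 0 with each of the other 9 genes, down to -0.676 with Gsta3. Among 14188 other genes, each by its brightest single-symbol probe set, those most like Gstm3 were Lacc1 (0.957), the mitochondrial malate dehydrogenase gene Mdh2 (0.954) and the efflux transporter gene Abcc4 (0.953). Those most like Gsta2 were Ugdh (0.894), which encodes the enzyme that makes UDP-glucuronic acid, Tkfc (0.863) and Tm4sf4 (0.859). Those most like Gstm2 were the acyl-CoA thioesterase gene Acot13 (0.914), Gstm5 (0.894) and Pgd (0.893), whose enzyme yields NADPH. Without the same 3 arrays, these 9 correlations lay between 0.759 and 0.908.

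Other genes of glutathione conjugation were counted by the brightest probe set of each gene. Of 12 other glutathione transferase genes tested, 2 were higher in LF+CR than in LF livers (Mgst3 at a log2 fold change of 0.70 and Gstm5 at 0.64) and none lower, where 2.23% and 3.12% of all 14198 genes were called higher and lower. In HF+CR against HF, 1 was higher (Gstm7 at 0.67) and 2 were lower (Mgst3 at -1.10 and Gsto1 at -0.31), where 3.28% and 2.36% of genes were called. Gstm7 lies beside Gstm6 on chromosome 3, and both were higher in HF+CR than in HF livers. Their neighbours on either side had negative log2 fold changes that were not called, Gstm3 at -0.79 and -1.31 and Gstm5 at -0.25. The interaction was negative and called for 3 (Mgst3 at -1.80, Gstm5 at -0.89 and Gsto1 at -0.45) and positive for none, where 2.31% and 3.24% of genes were called.

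Of 17 genes of glutathione synthesis, reduction and breakdown, 1 was higher in LF+CR than in LF livers (Pgd at 1.42) and 1 was lower (Oplah, which encodes 5-oxoprolinase, at -0.47). In HF+CR against HF, 2 were higher (Cbs, which encodes cystathionine beta-synthase, at 0.47 and the glyoxalase gene Hagh at 0.42) and 1 was lower (the glutaredoxin gene Glrx at -0.42). The interaction was positive for 2 (Hagh at 0.67 and the glyoxalase gene Glo1 at 0.45) and negative for 2 (Pgd at -1.69 and Glrx at -0.44). The median of this list was -0.12 for the interaction, against 0.05 over all genes. Of all 14198 genes, 2.23% were called higher and 3.12% lower in LF+CR against LF, and 3.28% and 2.36% in HF+CR against HF. In the interaction 3.24% were called positive and 2.31% negative. Counts of 1 or 2 among 17 genes are too small to set apart from these shares.

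Of 22 genes known as NRF2 or its targets outside glutathione metabolism, 6 were higher in LF+CR than in LF livers and none lower. The smallest adjusted p among them were those of the transketolase gene Tkt (0.70), the carboxylesterase gene Ces1g (0.68) and the malic enzyme gene Me1 (0.79). In HF+CR against HF none was higher and 4 were lower, the quinone reductase gene Nqo1 (-1.17), the transporter gene Abcc3 (-0.57), the carbonyl reductase gene Cbr1 (-0.78) and Tkt (-0.48). The interaction was negative and called for 7, led by Tkt at -1.18, Cbr1 at -1.66 and Ces1g at -1.08, and positive for none. List medians in these 3 comparisons were 0.27, -0.39 and -0.65, against -0.01, 0.04 and 0.05 over all genes. The shares of all 14198 genes called were 2.23% higher and 3.12% lower in LF+CR against LF, and 3.28% and 2.36% in HF+CR against HF. They were 3.24% positive and 2.31% negative in the interaction.

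Of 14 genes of CAR, PXR and their cytochromes, 4 were higher in LF+CR than in LF livers (Cyp2b9 at 3.10, Cyp2b13 at 2.67, Cyp2c55 at 1.12 and Cyp2b10 at 1.52) and none lower. In HF+CR against HF none was higher and 4 were lower (Cyp2b13 at -1.85, Cyp3a25 at -0.38, Cyp2b9 at -1.31 and the PXR gene Nr1i2 at -0.46). Cyp2c54 (1.33) and Cyp2c29 (0.50) had the other sign there and were not called. The interaction was negative for 5 (Cyp2b9 at -4.41, Cyp2b13 at -4.52, Cyp3a25 at -0.56, Cyp3a11 at -0.91 and Cyp2b10 at -1.76) and positive for none. The list medians were -0.06, -0.31 and -0.44. Over all 14198 genes the shares called were again 2.23% higher and 3.12% lower in LF+CR against LF, and 3.28% and 2.36% in HF+CR against HF. For the interaction they were 3.24% positive and 2.31% negative. 

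The lists were also counted without the arrays that stood apart, which was added after the values were seen. Without LF+CR 2, HF 1 and HF+Ex 3, the genes called in LF+CR against LF were 3 other transferases (Gstt3 joined at 0.71), 1 of glutathione synthesis, reduction and breakdown (Pgd at 1.18), 5 NRF2 genes and 3 of the CAR and PXR list, all higher. They were 3, 1, 2 and 4 in HF+CR against HF, in the same order of lists, with Nqo1 (-0.94) still called among the NRF2 genes and the calls of Cbr1, Abcc3 and Tkt lost. Of the CAR and PXR list, Cyp2c54 was then called higher, at 0.87. The interaction was then called for 4, 2, 6 and 5 genes, with Cyp2c54 (1.16) and Hagh (0.53) positive and the others negative. Nqo1 in LF+CR against LF had a log2 fold change of 0.57 in that setting, against 0.96 with all arrays, and Abcc4 had 0.57 against 1.01. Without LF+CR 2 alone, 3 NRF2 genes and 1 other transferase were called in LF+CR against LF. Without the 4 arrays with pancreatic transcripts, the counts in the same order of lists were 0, 0, 1 and 2 in LF+CR against LF, 2, 1, 1 and 5 in HF+CR against HF, and 1, 0, 4 and 4 in the interaction. The shares of all genes called in these settings are not given here. Calls over all probe sets in the interaction also fell without the 3 and without the 4 arrays, as listed in the section on processing. A change in a list count is therefore not particular to that list.

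Markers of other cell types and of liver zones also differed between these groups. Of the 5 pericentral hepatocyte markers, Glul (-0.33) and Rhbg (-0.54) were called lower in HF+CR than in HF livers. The others, Slc1a2 (-0.45), Oat (-0.01) and Cyp2e1 (0.02), were not called. In that comparison 2.36% of all genes were called lower and 3.28% higher. None of the 5 was called in LF+CR against LF. In the interaction Glul was called at -0.38, while the median of the list was 0.06, against 0.05 over all genes. All 5 Kupffer cell markers had negative log2 fold changes in HF+CR against HF and none was called, with a median of -0.37 and with sums of 3368.2 to 3898.2 in HF+CR livers and 4232.1 to 6564.7 in HF livers. Their median in the interaction was -0.62, and -0.17 without LF+CR 2. Of the 5 endothelial markers, Lyve1 alone was called, at -1.10 in HF+CR against HF and at 1.07 in HF against LF. The medians of the list were -0.14 and 0.13. Kdr had the other sign in both (0.06 and -0.06), and Clec4g had it in HF against LF (-0.11). The part of these markers in the results was not tested.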

How the data were processed

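Total RNA from mouse liver was extracted with Trizol and hybridised as biotin-labelled cRNA, per the labels' protocols. The authors deposited 1 table of linear intensity values for 18 arrays; how those intensities were summarised and normalised is not given in the sources used here. Of 45101 deposited rows, 64 control rows were left out, and gene symbols came from the platform annotation (34945 probe sets had 1 symbol, 932 several and 9160 none). Probe sets above the 40th percentile of their array on at least 3 arrays were kept (29336 kept, 15701 removed). Differences were tested with limma 3.58.1 in R 4.3.3 on log2(intensity + 16), with 12 residual degrees of freedom, an estimated prior of 3.754 and Benjamini-Hochberg adjustment over all probe sets tested. The procedure was tested on simulated data. The number of arrays limits the precision of these values. Groups and replicate numbers came from the sample titles. Replicate numbers did not pair arrays: same-numbered arrays of different groups had deviations correlated between -0.4 and 0.322, and in 0 of 15 pairs of groups were all 3 correlations over 0.1.

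The 10 genes, the gene lists, the motifs and the arrays left out were chosen with earlier results of these data known. Array-by-array values were given for the brightest probe set of each gene and for others past the threshold in a comparison, list genes were named by the smallest adjusted p (up to 3 a list and comparison), and the 3 members with the largest spread of group means were given their 3 most correlated genes. Other list genes were named, where 5 or fewer were called, after their values were seen. Alternatives were quantile normalisation, median centring, offsets of 1 and 64, other filters, 1 probe set per gene, array weights, a fit of only the groups compared, a replicate block, and arrays left out.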

Additional observations from a re-analysis of the deposited data

Results flagged for a closer look

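The effect of restriction differed between the diets, by a test of the difference itself, for 13 of the 16 glutathione transferase probe sets. These belong to 8 of the 10 genes, which were chosen with earlier results of these data known. Over all probe sets, 2.16% were called negative and 2.91% positive in this test. With 1 array left out, 6 (without HF 1) to 13 members were called. All 4 Gstm1 probe sets lost the call without HF 1, and also without LF+CR 2. On the log2 scale, HF+CR against HF minus LF+CR against LF was -2.72 for Gsta2 and -3.62 for the probe set shared by Gm3776, Gsta1 and Gsta2. It was -0.30 for the brighter Gsta3 probe set and -1.51 for Gsta4. In the mu class it was -0.72, -0.77, -0.92 and -0.98 for the 4 probe sets of Gstm1, -1.16 for Gstm2, -2.56 and -4.08 for the probe sets of Gstm3, and -1.08 for Gstm4. It was -0.79 for Gstt2. No test for an outlying value of a member within a group was run, since each group had 3 arrays.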

How the results depend on the processing

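Across the 35 pairs of member probe set and comparison that were called, 696 repeats under other settings kept the direction in every case; the call held in 506 and was lost in 190. Of 1374 repeats of the 77 pairs not called, 30 were called and 37 had the other sign. Quantile normalisation kept all 35 calls and median centring kept 31. The number of members called in HF against LF, 2, was 1 with median centring and 1 with an offset of 1. Without the filter, where all 45037 probe sets were tested, LF+CR against LF had 3 members in place of 6. The count over all probe sets is not given for that setting. With array weights the members called were 5 in HF against LF and 10 in LF+CR against LF, and the probe sets called were 1222, 2371, 3944, 5, 3643 and 2607 in HF against LF, LF+CR against LF, HF+CR against HF, LF+Ex against LF, HF+CR against LF+CR and the interaction, in place of 215, 1416, 1488, 2, 2415 and 1486. With 1 probe set per gene, which tests fewer features, these were 128, 791, 864, 1, 1269 and 815, with 7 members in HF+CR against LF+CR and 8 in the interaction. Fitting only the groups compared, with fewer arrays, gave 91 probe sets in HF against LF, 342 in LF+CR against LF with 0 members, 0 in LF+Ex against LF, and 789 in HF+CR against LF+CR with 1 member. Without LF+CR 2, HF 1 and HF+Ex 3, HF+CR against HF had 771, LF+Ex against LF 1, HF+CR against LF+CR 1548 and the interaction 611 with 6 members. Without the 4 arrays with pancreatic transcripts the counts in the same order of 6 comparisons were 19, 437, 772, 0, 1162 and 567, with 0, 0, 1, 0, 3 and 4 members. The cause of these shifts was not tested.

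With 1 array left out, the members called were 0 to 1 in HF against LF, 1 to 12 in LF+CR against LF, 1 to 2 in HF+CR against HF, 0 in both running comparisons, 4 to 12 in HF+CR against LF+CR and 6 to 13 in the interaction. The probe sets called were 26 to 270, 828 to 1606, 396 to 1562, 0 to 1 (LF+Ex against LF), 0 to 2 (HF+Ex against HF), 1449 to 2362 and 691 to 1877.

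With the replicate number as a block, the members called were 1 in HF against LF, 4 in LF+CR against LF, 1 in HF+CR against HF, 11 in HF+CR against LF+CR and 10 in the interaction, and HF against LF had 84 probe sets. The counts over all probe sets in the other comparisons are not given for this setting, so those member counts stand without a share. The numbers did not pair the arrays: of 45 same-numbered pairs of arrays, 10 had deviations correlated over 0.1.

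With 3 arrays a group, differences near the spread of these probe sets could not be called. All dim probe sets, 15701, were left untested, and signals of close family members on shared probes could not be separated.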
